A study of Mus musculus with 12 samples.

Results

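The transcripts described here are those of 10 genes that the mouse oocyte transcribes while it grows. They are the zona pellucida genes Zp1, Zp2 and Zp3, the secreted factor genes Gdf9, Bmp15 and Oosp1, the transcription factor genes Nobox, Figla and Lhx8, and the receptor gene Kit. They were chosen by name, as all probe sets that the platform annotation gives to one of these symbols. All 10 genes were measured, by 13 probe sets, among 18163 genes with a named probe set. The brightest probe set (highest mean log2 value over all arrays) stands for each gene, and the others served as a check.

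The study knocked down either Oct4, also named Pou5f1, or Ccna2, which encodes cyclin A2, in mouse embryos and measured their RNA on Affymetrix mouse genome arrays at the mid-2-cell stage. There were 12 arrays in 4 groups of 3. Oct4-MO embryos were injected at the 1-cell stage with a morpholino, a synthetic antisense oligonucleotide that blocks translation, against the translational start site of Oct4. Ccna2-MO embryos were injected with morpholino against the 5′UTR or the translational start site of Ccna2, and each experiment had its own uninjected controls. The labels give 0.6 mM for both morpholinos, while the methods of the study give a higher concentration for Ccna2-MO. All embryos came from superovulated wild type F1 (C57BL6xDBA/2) females, 3 to 5 weeks old, that had been mated with wild type males. They were recovered 17 h after human chorionic gonadotropin and pooled from 3 to 6 females, and cumulus cells were taken off with hyaluronidase. RNA was extracted from 20 embryos per array, and 2 rounds of amplification started from the amount of 10 embryos. Controls were cultured beside the injected embryos but received no injection, so against them an effect of injection and an effect of the knockdown cannot be told apart. For the arrays, the study treated the Ccna2-MO embryos as its control for injection and for morpholino in the cytoplasm. These embryos had a knockdown of their own, and no array was of embryos with a mismatch or other control morpholino. A block of translation need not lower the targeted mRNA, so the arrays give no check of the knockdown.

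The growing oocyte stores large amounts of mRNA, and after fertilization most of it is degraded while the genome of the embryo is switched on. ZP1, ZP2 and ZP3 are glycoproteins of the zona pellucida, the coat around the egg. GDF9 and BMP15 are ligands of the TGF-β family that act on the granulosa cells of the follicle, NOBOX, FIGLA and LHX8 are transcription factors that oocytes need to form and grow, and KIT is the receptor through which KIT ligand from granulosa cells acts on the oocyte. No oocyte and no 1-cell embryo is among the samples, so mRNA left over from the oocyte and mRNA made by the embryo cannot be told apart, nor can fewer embryos with the RNA and less RNA per embryo.

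On every array between 39.3% and 42.7% of the probe sets had a value under 16, and array medians ran from 22.7 to 25.5 intensity units. Intensities of different probe sets are not on 1 scale of transcript amount, so values are compared between groups within a probe set. The exceptions are sums over a fixed list of genes, in which the brightest probe sets weigh most, and words such as bright, dim and low. Those words describe signal and not transcript amount. All 13 probe sets of the 10 genes were among the brighter part, which is the 22468 of 44937 probe sets with the higher mean log2 value. Of the markers of genome activation at the 2-cell stage, Zfp352 lay between 2278 and 3893 and Tcstv1 between 1915 and 3045 over the arrays, while Duxf3 lay between 7.08 and 59.6. Granulosa and cumulus cell markers were mostly dim. Of 22 measured, 6 lay in the brighter part (Amhr2, Gja1, Nr5a2, Cyp11a1, Star and Kitl), while Fshr, the receptor for follicle-stimulating hormone, stayed between 1.16 and 5.70. The sum of this marker list ran from 1408 to 2083 in Oct4-MO embryos and from 1637 to 1981 in their controls. It ran from 1284 to 2104 in Ccna2-MO embryos and from 1735 to 2292 in theirs, so the sums overlapped. Single genes in the sum moved in opposite directions. Cyp11a1 averaged 331 in Oct4-MO embryos against 131 in their controls, and 216 in Ccna2-MO embryos against 82 in theirs. Nr5a2 averaged 277 in Oct4-MO embryos against 493 in their controls, and 267 in Ccna2-MO embryos against 497 in theirs. Overlap of the sums thus does not show that each marker was level. Whether RNA of these markers came from such cells or from the embryos themselves was not tested. For 3 pools per group, the limma p-values below rest on the spread between pools after amplification. That spread was moderated with information from all probe sets.

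FIGLA acts as a dimer on E-boxes (CANNTG) in oocyte promoters, NOBOX on the element TAATTG and LHX8 on TGATTG. These letters were searched on both strands of the RefSeq promoters (GRCm38.p6, 250 bases before to 50 after the start), which held an entry for 7 of the 10 genes, Zp3, Nobox, Figla, Oosp1, Bmp15, Kit and Lhx8. Anywhere in these 300 bases, an E-box was present in 72.3% of all 32851 promoters, TAATTG in 8% and TGATTG in 14%. The following stretches cover each gene that had an E-box before its start. They show, in capitals, the most upstream E-box that had 12 bases of the upstream window on either side. The stretch of Figla holds a further E-box, left in lower case. They are given because Figla, Nobox and Lhx8 are themselves among the transcripts measured.
Zp3, chr5:135979912-135979941, plus strand, 181 bases before the start: ttgaataggaatCACGTGgagtgtctttac
Nobox, chr6:43309674-43309703, minus strand, 137 bases before the start: cagcccccacccCAGGTGtgcggtgcctcg
Figla, chr6:86017006-86017035, plus strand, 173 bases before the start: ccacctcgcactCAGGTGcgtcaagtgtgt
Oosp1, chr19:11691228-11691257, minus strand, 194 bases before the start: ggatttgagtttCAAGTGtgctttgagaac
Bmp15, chrX:6320908-6320937, minus strand, 201 bases before the start: ttatttacattcCAAATGttatttcactcc
Nobox and Figla carried the same letters, CAGGTG, and Zp3 the symmetric CACGTG. The promoter of Bmp15 also held the LHX8 element, in capitals here, 45 bases before the start.
Bmp15, chrX:6320752-6320781, minus strand: ccctttaaggccTGATTGagggattgcctt
Upstream of the start the window of Oosp1 held 5 E-boxes, that of Zp3 held 3, those of Nobox and Figla 2 each and that of Bmp15 1. The windows of Kit and Lhx8 held none there, though Kit held 1 elsewhere in its window, and none of the 7 promoters held TAATTG. No share over all promoters was computed for the upstream part alone. A match describes the letters of a window only, and binding was not measured.

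In Oct4-MO embryos none of the 10 transcripts changed at an adjusted p under 0.05 by limma with Benjamini-Hochberg adjustment over all probe sets, against 0.0734% of all probe sets. In Ccna2-MO embryos 1 of the 10 rose, Lhx8, against 0.338% of all probe sets called higher and 0.748% called in either direction. At an unadjusted p under 0.05, Gdf9 and Nobox were higher in Oct4-MO embryos (4.17% of all probe sets were called higher this way), and Gdf9, Nobox and Lhx8 were higher in Ccna2-MO embryos (6.89%). Among the 11417 genes of the brighter part, where all 10 lay, these shares were 5.45% and 10.7%. No member was lower at that threshold in either knockdown, against 5.09% and 7.16% of all probe sets. The median log2 fold change over the 10 was 0.05 in Oct4-MO embryos, with 6 above 0, and 0.12 in Ccna2-MO embryos, also with 6 above 0. Over all 18163 genes the medians were 0.01 and 0.03, with 51.5% and 53.2% above 0.

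**Figure D1:**
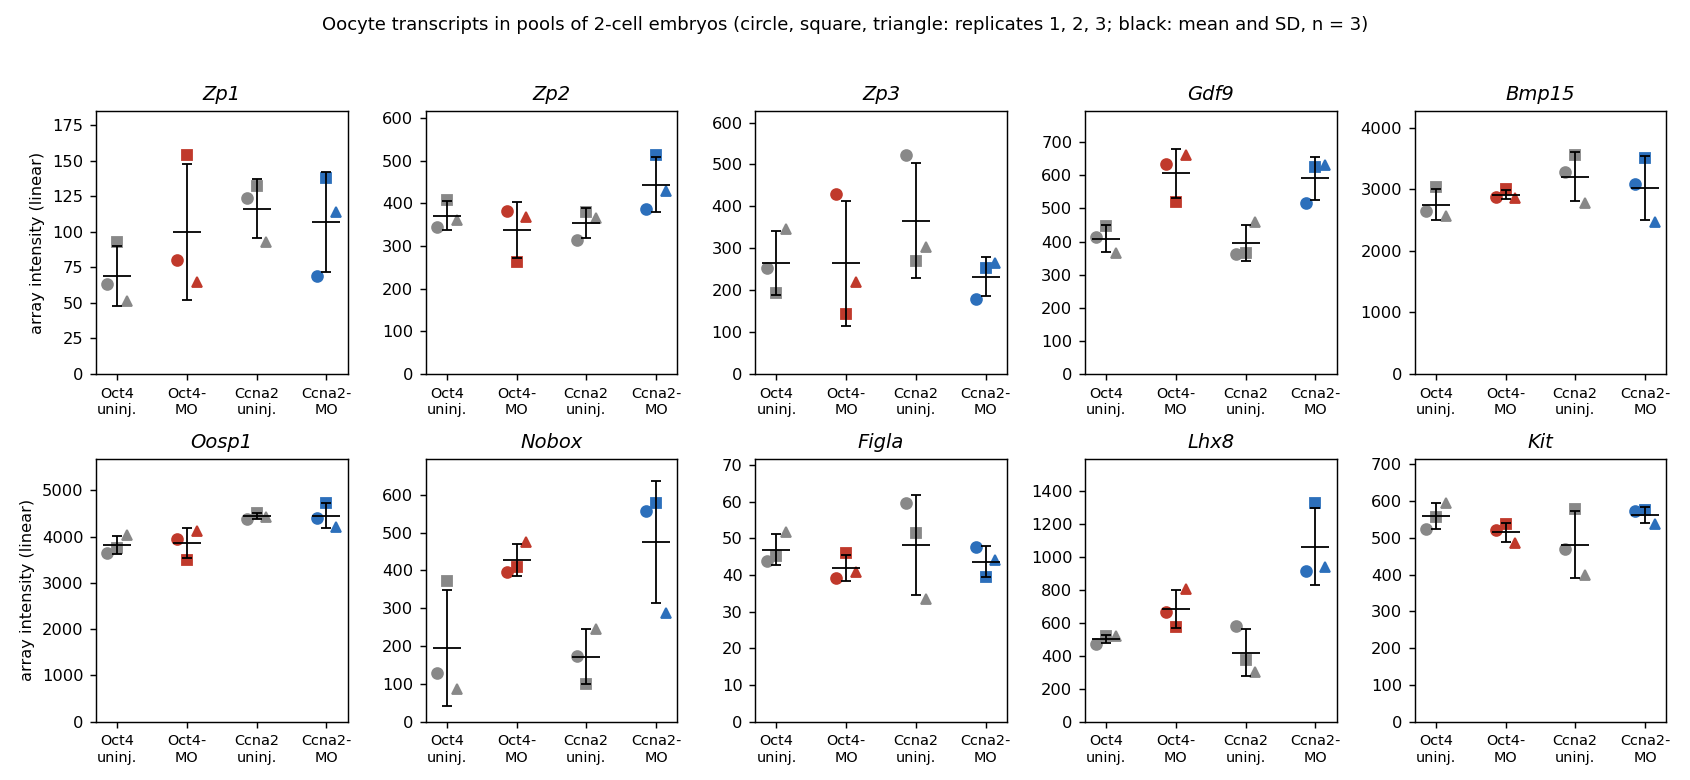
Intensity of each of the 10 transcripts (vertical axis, linear, starting at 0, one scale per panel) in the 4 groups, with a point for each of 3 arrays and a line for the mean and its SD. Gdf9, Nobox and Lhx8 had all 3 injected pools above all 3 of their own controls in both experiments. Oosp1, Bmp15 and Kit stayed within a factor of 1.5 over the 12 arrays on the brightest probe sets shown.

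**Figure D2:**
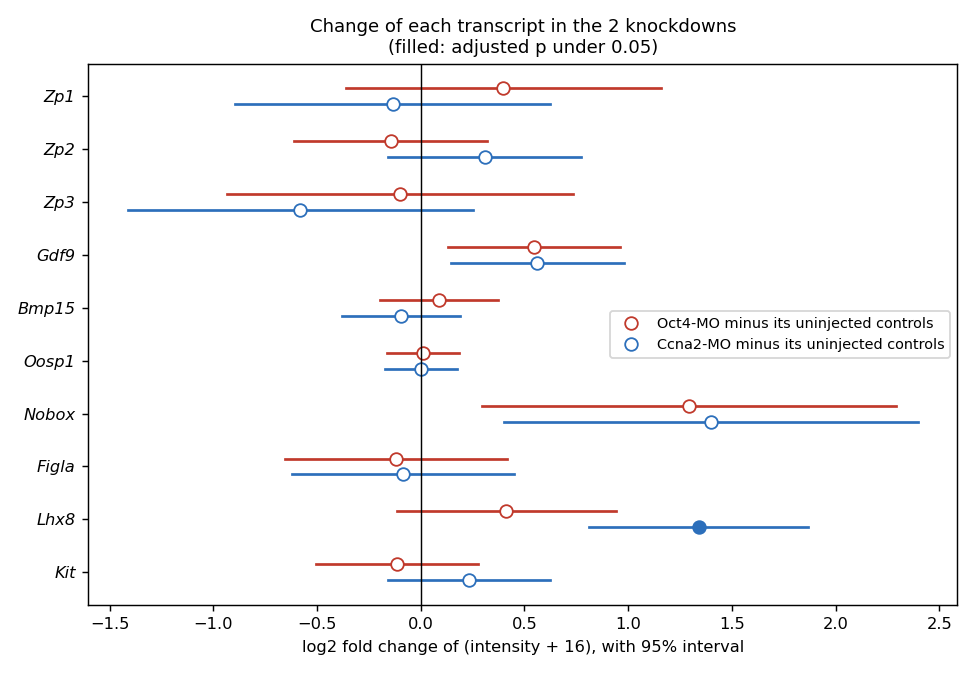
Change of each transcript (log2 fold change of intensity + 16, horizontal axis) in Oct4-MO embryos in red and Ccna2-MO embryos in blue, each against its own uninjected controls, with the 95% interval of the limma fit over 12 arrays. The filled point, Lhx8 in Ccna2-MO embryos at 1.34, is the one value with an adjusted p under 0.05.

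None of the zona transcripts passed the adjusted threshold in either knockdown. Zp1, whose protein cross-links the zona filaments, measured 80.1, 154 and 64.7 in the 3 pools of Oct4-MO embryos and 63.0, 92.6 and 51.3 in their controls. It measured 69.0, 138 and 114 in Ccna2-MO embryos and 124, 132 and 92.8 in their controls. The groups overlapped in both experiments. The log2 fold change was 0.40 (SE 0.35, adjusted p = 0.82) in Oct4-MO embryos, where each injected pool exceeded the control of its own pair, and -0.14 (SE 0.35, adjusted p = 0.91) in Ccna2-MO embryos.

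Zp2 encodes the zona protein that is cleaved after fertilization. It measured 382, 263 and 369 in Oct4-MO embryos against 344, 409 and 361 in their controls, and these overlapped (log2 fold change -0.14, SE 0.21, adjusted p = 0.92). In Ccna2-MO embryos it measured 386, 514 and 430 against 314, 379 and 367. All 3 Ccna2-MO pools lay above all 3 controls, a separation that 8.64% of all probe sets had in this direction, and the log2 fold change was 0.31 (SE 0.21, adjusted p = 0.57).

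Zp3, which builds the filaments together with ZP2, was the most variable of the zona transcripts, with a residual SD of 0.51 on the log2 scale. It measured 430, 142 and 219 in Oct4-MO embryos against 254, 193 and 346 in their controls, with overlap (log2 fold change -0.10, SE 0.38, adjusted p = 0.98). In Ccna2-MO embryos it measured 179.5, 253 and 264 against 523, 271 and 303. Here all injected pools were below all controls, as for 8.27% of all probe sets, and the log2 fold change was -0.58 (SE 0.38, 95% interval -1.41 to 0.25, adjusted p = 0.55). Zp2 and Zp3 thus lay on opposite sides of their controls in the Ccna2-MO experiment, and neither difference passed the test.

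Gdf9, a growth factor by which the oocyte steers granulosa cells, was higher in all injected pools of both experiments. It measured 634, 521 and 662 in Oct4-MO embryos and 414, 447 and 366 in their controls. It measured 516, 626 and 630 in Ccna2-MO embryos and 362, 366 and 459 in their controls. No injected pool overlapped with the controls of its experiment, or with those of the other. Of all probe sets 8.24% were separated in this direction in the Oct4-MO experiment. The ratio of means was 1.48 and 1.49. The log2 fold change was 0.55 (SE 0.19, 95% interval 0.13 to 0.96, adjusted p = 0.37) in Oct4-MO embryos and 0.56 (SE 0.19, 95% interval 0.15 to 0.98, adjusted p = 0.20) in Ccna2-MO embryos by limma, so neither passed the adjusted threshold.

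Bmp15 encodes the partner ligand of GDF9. It spanned a factor of 1.44 over all 12 arrays on its brightest probe set, and 1.27 and 1.7 on the others. It measured 2869, 3001 and 2862 in Oct4-MO embryos against 2643, 3032 and 2567 in their controls, and 3081, 3506 and 2464 in Ccna2-MO embryos against 3281, 3558 and 2774. Groups overlapped in both experiments. The log2 fold changes were 0.09 (SE 0.13, 95% interval -0.20 to 0.37, adjusted p = 0.92) and -0.09 (SE 0.13, 95% interval -0.38 to 0.19, adjusted p = 0.81). The 3 pools of the Ccna2-MO experiment were each slightly below their paired controls. A second probe set of Bmp15 measured 2870, 3006 and 2829 in Ccna2-MO embryos against 2510, 2613 and 2380 in their controls. On that probe set the injected pools lay above the controls without overlap, with a log2 fold change of 0.21 (SE 0.09, adjusted p = 0.31), while the remaining probe set gave -0.11 (adjusted p = 0.85). The probe sets of Bmp15 thus differed in sign in Ccna2-MO embryos, and none passed.

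Oosp1, which encodes an oocyte secreted protein, varied least of the 10. Its coefficient of variation over 12 arrays was 9.09%. It measured 3953, 3489 and 4121 in Oct4-MO embryos against 3651, 3757 and 4041 in their controls, and 4399.65, 4735 and 4202 in Ccna2-MO embryos against 4379, 4508 and 4428. Injected and control pools overlapped in both experiments. The 95% interval of the log2 fold change was -0.16 to 0.18 in Oct4-MO embryos (estimate 0.01, SE 0.08, adjusted p = 0.99) and -0.17 to 0.17 in Ccna2-MO embryos. These were the narrowest intervals among the 10.

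Nobox, a homeobox factor whose known targets include Gdf9 and Bmp15, showed the largest ratios of means. It measured 397, 408 and 475 in Oct4-MO embryos and 129, 371 and 87.6 in their controls. It measured 557, 580 and 288 in Ccna2-MO embryos and 173, 98.8 and 245 in their controls. The injected pools lay above their controls without overlap in both experiments, although the second control of the Oct4-MO experiment and the third pool of Ccna2-MO embryos came close to the other group. The ratio of means was 2.18 in Oct4-MO embryos and 2.76 in Ccna2-MO embryos. The log2 fold change was 1.29 (SE 0.46, 95% interval 0.30 to 2.29, adjusted p = 0.38) and 1.40 (SE 0.46, 95% interval 0.40 to 2.40, adjusted p = 0.18). Within pairs it was 1.51, 0.13 and 2.24 in Oct4-MO embryos and 1.60, 2.37 and 0.22 in Ccna2-MO embryos. Nobox had the largest residual SD of the 10, 0.64 on the log2 scale, and its 12 values spanned a factor of 6.62.

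Lhx8, a LIM homeobox factor that early oocytes need, was the member that passed the test. It measured 916, 1329 and 940.4 in Ccna2-MO embryos and 579, 373 and 303 in their controls, a ratio of means of 2.54. The lowest Ccna2-MO pool was above the highest of the 9 other arrays. The log2 fold change was 1.34 (SE 0.24, 95% interval 0.81 to 1.87, adjusted p = 0.035), and within pairs it was 0.65, 1.79 and 1.58. With each injected pool paired to the control pool it was cultured with, as a block in the fit, the adjusted p was 0.063. It was also above the threshold without Ccna2-MO replicate 2 (adjusted p = 0.108), without replicate 1, 2 or 3 of the Ccna2 uninjected controls (0.0513, 0.0809 and 0.104), or without replicate 1, 2 or 3 of the Oct4 uninjected controls (0.0574, 0.0531 and 0.0608). The log2 fold change ranged from 1.14 to 1.59 under these and the other settings tried. Many of them cannot move it from 1.34. The block alters only the error term, and leaving out an array of the Oct4-MO experiment does not touch the 2 group means compared.

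In Oct4-MO embryos Lhx8 measured 667, 573 and 804, and in their controls 474, 517 and 519. These groups did not overlap, and the log2 fold change was 0.41 (SE 0.24, 95% interval -0.12 to 0.94, adjusted p = 0.67). The change in Oct4-MO embryos was thus smaller than that in Ccna2-MO embryos by 0.93 on the log2 scale. The test of that difference gave -0.93 (SE 0.34, 95% interval -1.67 to -0.18) with an adjusted p of 0.69, so the knockdowns were not shown to differ in Lhx8.

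Figla, the helix-loop-helix factor of the zona promoters, had low values on all arrays. It measured 39.3, 46.0 and 40.7 in Oct4-MO embryos against 43.9, 45.3 and 51.7 in their controls, and 47.6, 39.4 and 44.0 in Ccna2-MO embryos against 59.8, 51.4 and 33.3. Groups overlapped in both experiments. The log2 fold changes were -0.12 (SE 0.25, adjusted p = 0.95) and -0.08 (SE 0.25, adjusted p = 0.92), on a scale that understates changes at such low values.

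Kit measured 520.4, 536 and 487 in Oct4-MO embryos against 524, 557 and 596 in their controls, and 572, 576 and 538 in Ccna2-MO embryos against 470.2, 577 and 398. Groups overlapped in both experiments. Each Oct4-MO pool lay below its paired control, with a log2 fold change of -0.12 (SE 0.18, adjusted p = 0.93), and that in Ccna2-MO embryos was 0.23 (SE 0.18, adjusted p = 0.62). The dimmer probe set of Kit gave -0.30 (adjusted p = 0.91) and 0.24 (adjusted p = 0.85), with the same signs and wide scatter, from 114 to 407 within Ccna2-MO embryos alone.

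**Figure D3:**
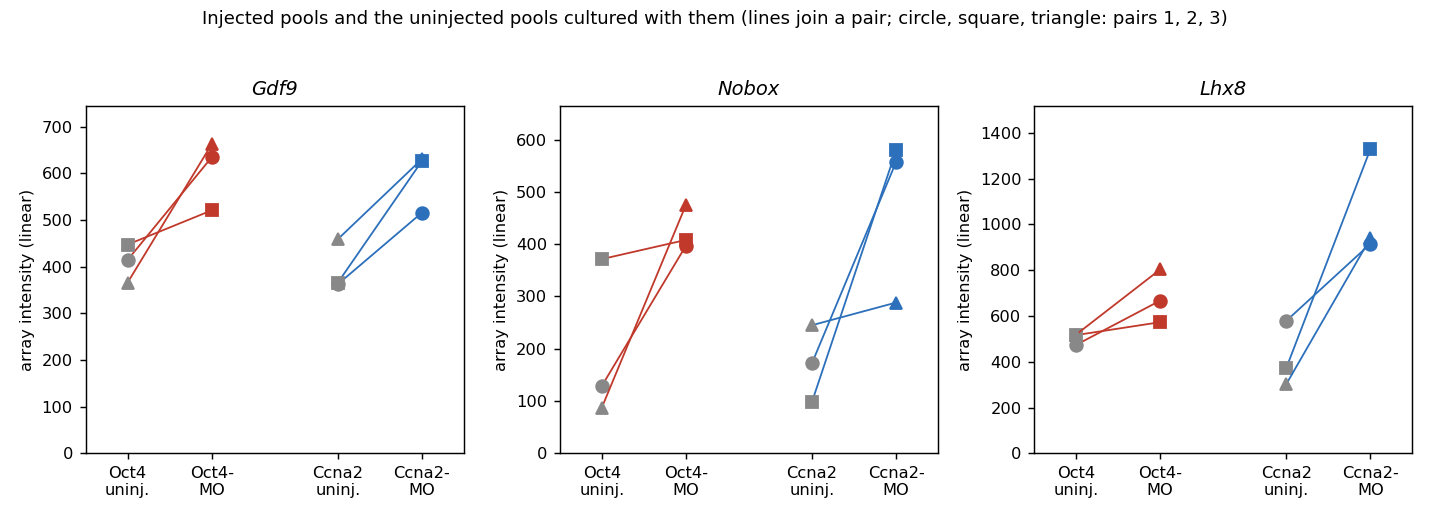
Intensity of Gdf9, Nobox and Lhx8 (vertical axis, linear, starting at 0) in each uninjected pool and the injected pool cultured beside it, joined by a line for each of 3 pairs per experiment. All lines rise toward the injected pool, by as little as 0.13 for Nobox in the second Oct4 pair and as much as 2.37 in the second Ccna2 pair on the log2 scale.

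Gdf9, Nobox and Lhx8 were thus the members whose injected pools lay above their controls without overlap in both experiments, as did 1.38% of all probe sets. In the Oct4-MO experiment they were the only ones of the 10 without overlap, and none was separated in the other direction, as 8.4% of all probe sets were. In the Ccna2-MO experiment Zp2 was separated in the same direction and Zp3 in the other. Of the 11417 genes in the brighter part, 1180 were separated upward and 1428 downward in the Oct4-MO experiment. In the Ccna2-MO experiment 1310 were separated upward and 1393 downward. No member differed between the knockdowns by an adjusted p under 0.05, and 0.00223% of all probe sets did. Lhx8 alone had an unadjusted p under 0.05 for that difference, with the smaller change in Oct4-MO embryos, as did 3.64% of all probe sets in that direction. For Gdf9 the difference between the log2 fold changes was -0.02 (95% interval -0.60 to 0.57) and for Nobox -0.10 (95% interval -1.52 to 1.31).

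The uninjected controls of both experiments were compared as a measure of how far the experiments differed on their own. No member passed the adjusted threshold, which 0.0912% of all probe sets did. Oosp1 was lower in the controls of the Oct4-MO experiment without overlap (log2 difference -0.22, SE 0.08, adjusted p = 0.32), and was below an unadjusted p of 0.05 as 5.95% of all probe sets were in that direction. Zp1 was also lower without overlap (log2 difference -0.65, SE 0.35, adjusted p = 0.50). Of all probe sets 10.3% were separated in that direction. Oosp1 kept this order in the injected embryos, so that its 6 arrays of the Ccna2-MO experiment all exceeded the 6 of the Oct4-MO experiment.

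Ordered by mean, the 4 groups of each member formed 30 neighbouring pairs, of which 25 overlapped and 5 did not. Of the neighbouring pairs of all probe sets, 8.57% did not overlap, and 11.2% among the brighter probe sets. For Lhx8 the order was Ccna2-MO (1062 ± 232, SD, n = 3), Oct4-MO (681 ± 116), Oct4 uninjected (503 ± 25.3) and Ccna2 uninjected (418 ± 144), with gaps on both sides of Oct4-MO. For Nobox it was Ccna2-MO (475 ± 162), Oct4-MO (427 ± 42.2), Oct4 uninjected (196 ± 153) and Ccna2 uninjected (172 ± 73.1), with 1 gap, between Oct4-MO and Oct4 uninjected. For Gdf9 it was Oct4-MO (606 ± 74.95), Ccna2-MO (591 ± 65.1), Oct4 uninjected (409 ± 41.1) and Ccna2 uninjected (396 ± 54.8), with 1 gap between injected and uninjected groups. The remaining gap was that of Oosp1 between experiments, and 6 members had no gap at all. At least 1 gap was present in 23.1% of all probe sets, while 76.9% of all and 70.6% of the brighter probe sets had none.

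Other genes of the same pathways were counted without the 10. Of 4 further genes of the zona and egg surface, none passed in either knockdown, and their median log2 fold changes were 0.29 and -0.14. Of 11 other oocyte transcription factors none passed, with medians of -0.03 and 0.08. The one with the smallest p in both was Sall4, a zinc finger factor, at -0.81 (adjusted p = 0.32) in Oct4-MO embryos and -1.24 (adjusted p = 0.053) in Ccna2-MO embryos. Of 19 genes of GDF9 and BMP15 signalling none passed, with medians of -0.02 and 0.07. Among these Bmpr1a, a type I BMP receptor, had the smallest p in Oct4-MO embryos at -1.49 (adjusted p = 0.14), and Smurf1, a ubiquitin ligase of the pathway, in Ccna2-MO embryos at 1.35 (adjusted p = 0.067). Of 22 genes of KIT signalling none passed, with medians of -0.02 and 0.01.

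A list of 52 other measured oocyte-enriched transcripts lay mostly above 0 in both knockdowns, on the side of Gdf9, Nobox and Lhx8. Of all 10 members 6 were above 0 in each knockdown, with medians of 0.05 and 0.12. In Oct4-MO embryos 42 of the 52 had a log2 fold change above 0, with a median of 0.16, and 0 passed (limma, while 11 were higher and 2 lower at an unadjusted p under 0.05). Of all 11417 genes in the brighter part, 48.2% were above 0 and 5.45% were higher at that p in Oct4-MO embryos. In Ccna2-MO embryos 44 were above 0, with a median of 0.40, and 1 passed, Zar1, while 24 were higher and 2 lower at an unadjusted p under 0.05. Of the genes in the brighter part, 51.6% were above 0 and 10.7% were higher at that p in Ccna2-MO embryos. Their medians were -0.02 in Oct4-MO embryos and 0.02 in Ccna2-MO embryos. The summed level of this list ran from 78640 to 84420 in Oct4-MO embryos and from 70300 to 77290 in their controls. It ran from 82490 to 95980 in Ccna2-MO embryos and from 68880 to 78580 in theirs, so that neither injected group overlapped with its controls. The brightest probe sets weigh most in this sum, and how often sums of other genes separate was not tested. The part of this list in the values of Gdf9, Nobox and Lhx8 was not tested either.

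Zar1, a maternal-effect gene of the oocyte, averaged 392.5 ± 180 (SD, n = 3) in Ccna2-MO embryos and 71.5 ± 34.5 in their controls, with a log2 fold change of 2.19 (SE 0.39, adjusted p = 0.033). In Oct4-MO embryos it averaged 303 ± 5.92 and in their controls 73.6 ± 20.2, with a log2 fold change of 1.85 (SE 0.39, adjusted p = 0.12). Its call in Ccna2-MO embryos was lost in 8 of 24 other settings, which were the 6 arrays alone (0.184), an unpaired t-statistic (0.435) and 6 that left out 1 array (Ccna2-MO replicate 2, any of the Ccna2 uninjected controls, or replicate 1 or 3 of the Oct4 uninjected controls, adjusted p from 0.0515 to 0.120).

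Of 12 measured genes of 2-cell genome activation, 1 fell in Oct4-MO embryos, Trim43a (log2 fold change -1.12, adjusted p = 0.022), and 1 rose in Ccna2-MO embryos, Hspa1a, a heat shock protein gene (1.29, adjusted p = 0.027, and 0.062 with the pair as a block). The medians of this list were 0.07 and 0.13. Trim43a lost its call in 8 of 24 other settings, with no intensity trend (0.0605), with the 6 arrays alone (0.0888), by an unpaired t-statistic (0.353), and without Oct4-MO replicate 2 or 3, Oct4 uninjected replicate 1 or 3, or Ccna2 uninjected replicate 1 (adjusted p from 0.0589 to 0.152). Hspa1a lost its call in 9 of 24, under the block, with all 6 uninjected arrays as controls (0.0849), with array weights (0.0542), with the 6 arrays alone (0.178), by an unpaired t-statistic (0.33), and without Ccna2-MO replicate 2, Ccna2 uninjected replicate 1 or 3, or Oct4 uninjected replicate 1 (adjusted p from 0.0502 to 0.114). None of the 22 granulosa and cumulus cell markers passed, with medians of 0.12 and -0.06. Among them the adjusted p by limma in Oct4-MO and Ccna2-MO embryos was 0.51 and 0.18 for Cyp11a1, which was higher. It was 0.17 and 0.067 for Nr5a2, which was lower. None of 10 sperm transcripts passed, with medians of 0.09 and 0.05.

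**Figure D4:**
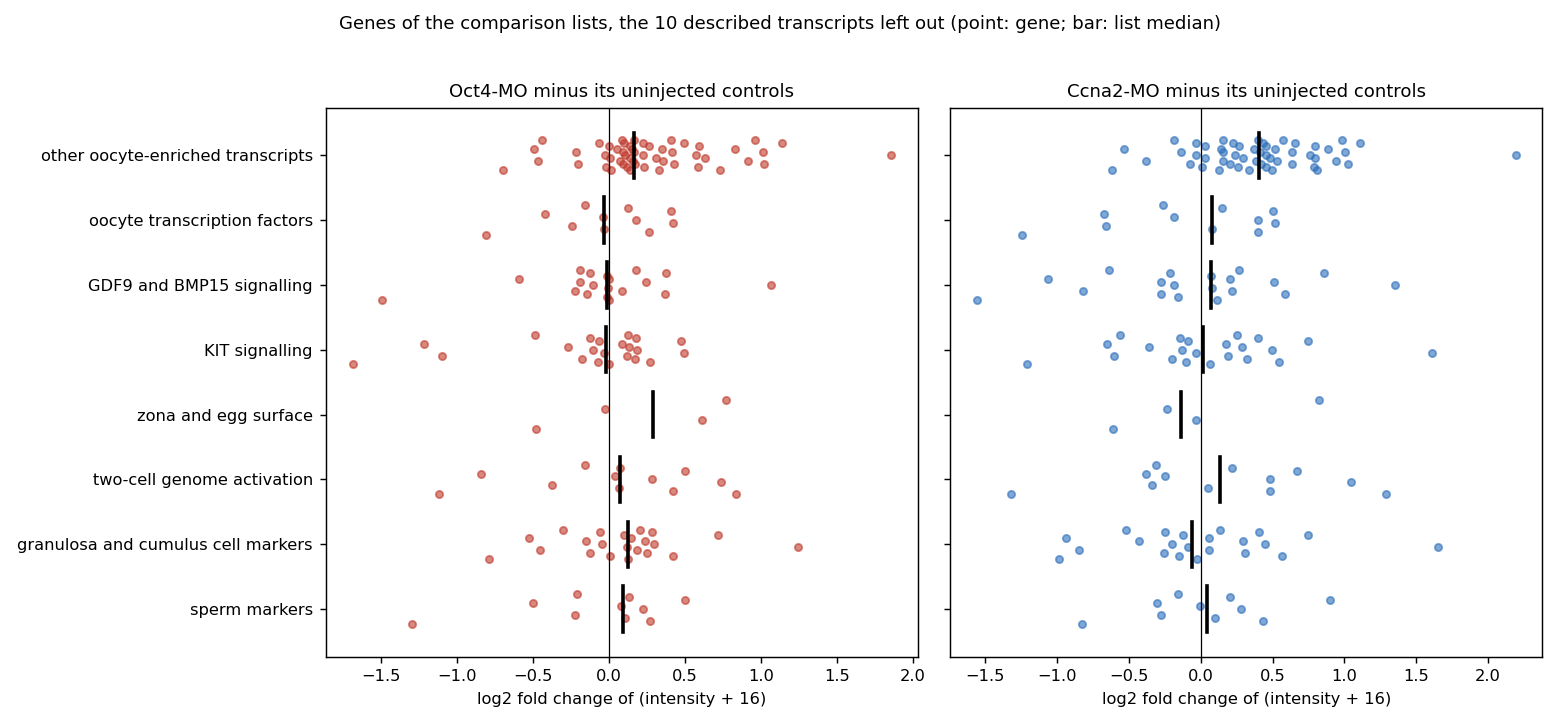
Log2 fold change of intensity + 16 (horizontal axis) of each measured gene of the 8 lists of other genes, with the 10 transcripts left out, in Oct4-MO embryos (left, red) and Ccna2-MO embryos (right, blue) against their uninjected controls. Points are genes and bars are list medians, and the oocyte-enriched list had medians of 0.16 and 0.40 with Zar1 as its rightmost point in both.

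Over the 12 arrays, the values of Gdf9 and Nobox ran most alike among the 45 pairs of members (Pearson r = 0.82 of log2 values), followed by Gdf9 and Lhx8 (0.69). Gdf9 and Figla ran most unlike (-0.63). These coefficients describe arrays that share groups, pools and normalization, and carry no test. Among 11417 genes of the brighter part, those most like Nobox were Ccdc47 (0.96), Bach2 (0.96) and Cnot3 (0.93), and those most like Lhx8 were Srpk2 (0.96), Arpc4 (0.94) and Mthfd2 (0.92). Those most like Gdf9 were Mcu (0.94), Arrdc4 (0.94) and Cs (0.94). Over all members the closest gene had a coefficient between 0.86, for Atp10a with Figla, and 0.96. Such values are the highest of many.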

How the data were processed

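RNA of pooled mid-2-cell embryos was measured on 12 arrays. The deposited values are intensities on a linear scale, 1 per probe set, which the authors computed and normalized in dChip. For dChip the version was not given in the sources used here, nor was the expression model. Of 45001 rows, 64 array controls were left out and 44937 probe sets were tested. The platform annotation gave 1 symbol to 34849, several to 928 (not named) and none to 9160. Arrays were assigned to groups and pairs by the labels.

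Values were analysed as log2(intensity + 16), which understates changes of dim probe sets. In R 4.3.3 with limma 3.58.1, 1 linear model with 4 group means and an intensity trend was fitted over all probe sets and arrays, and p-values were adjusted by Benjamini-Hochberg over all of them. The fit was tested on simulated data. The labels state that controls came from the embryo pool of the injected embryos, so same-numbered pools are pairs. Their deviations from group means correlated at 0.083, 0.031 and 0.0091 for Oct4-MO and -0.013, 0.084 and 0.11 for Ccna2-MO. The pair was a block in an alternative, as were other controls, scalings, weights and tests and each array left out.

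Members, lists and tests were chosen with earlier results of these data known. Genes named were all members, and from each other list the genes that passed (at most 4 per knockdown) or the 1 with the smallest p, of which those that the text turns on are given, and the 3 genes most like a member.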

Additional observations from a re-analysis of the deposited data

How the results depend on the processing

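Under the replicate block, with only the 6 arrays of the comparison in the fit, with array weights or with a plain unpaired t-statistic adjusted by Benjamini-Hochberg (the methods name such a statistic as 1 part of their ranking and did not use it alone), the number of members called in Ccna2-MO embryos went from 1 to 0 (Lhx8, adjusted p = 0.063, 0.19, 0.065 and 0.42). The cause was not tested. Leaving out 1 array gave 0 to 1. Lhx8 kept its call in 13 of 24 alternatives, with an adjusted p from 0.019 to 0.42 over all. The block changed no other call of a member. No member was called in the other comparisons under any alternative. Gdf9, Nobox and Lhx8 stayed above 0 in both knockdowns under all 24, Gdf9 at 0.47 to 0.65 and 0.51 to 0.67 and Nobox at 0.90 to 1.85 and 1.08 to 1.71, with a lowest adjusted p of 0.13 in both for Gdf9 and of 0.12 and 0.10 for Nobox. Their sign says little here. Their injected and control pools did not overlap, so leaving out 1 array could not turn it. Settings that alter only the error term or the adjustment leave the estimate as it was. Of 930 values of members, 61 turned sign, none of them called. Many of the 930 could not turn, because the setting left the estimate unchanged, so this share understates how easily signs turn. With all 6 uninjected arrays as controls, Bmp15 became -0.022 and Oosp1 -0.10 in Oct4-MO embryos, Zp1 0.19 and Bmp15 0.015 in Ccna2-MO embryos, and the difference between knockdowns -0.12 for Zp1, 0.034 for Gdf9, -0.037 for Bmp15 and -0.21 for Oosp1. Quantile normalization turned the difference of Gdf9 to 0.014, and median centring to 0.035, that of Figla to 0.02 and Figla between controls to 0.02. Array weights gave Oosp1 -0.0067, -0.0042 and -0.0025 in Oct4-MO embryos, Ccna2-MO embryos and their difference, Nobox 0.13 in the difference and -0.14 between controls, and Figla 0.0068 between controls. The mean of all probe sets gave Bmp15 0.0044 in Ccna2-MO embryos. Leaving out 1 array moved through 0, in Oct4-MO embryos, Oosp1 (-0.038 to 0.082), Zp2 (-0.24 to 0.019) and Zp3 (-0.50 to 0.24). It did so in Ccna2-MO embryos for Bmp15 (-0.21 to 0.044), Figla (-0.26 to 0.046), Oosp1 (-0.045 to 0.040) and Zp1 (-0.32 to 0.11), in the difference for Figla (-0.16 to 0.15), Gdf9 (-0.12 to 0.086), Nobox (-0.50 to 0.45) and Oosp1 (-0.039 to 0.081), and between controls for Figla (-0.19 to 0.12), Gdf9 (-0.014 to 0.16), Nobox (-0.54 to 0.41) and Zp2 (-0.00995 to 0.12). Over all probe sets, calls in Oct4-MO embryos numbered 33 and ranged from 0 (6 arrays alone) to 452 (all 6 controls), in Ccna2-MO embryos 336 and 0 (unpaired t-statistic) to 711 (brighter probe sets alone), in the difference 1 and 0 to 53, and between controls 41 and 0 to 221. The block and the larger set of controls could not be run for the controls themselves. The number of arrays, 3 per group, limits the precision. An effect of low signal on the dimmer members was not tested.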
